A study of Mus musculus with 12 samples.

Results

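Chromatin accessibility of resting microglia was compared between aged and young mice by ATAC-seq, in which the Tn5 transposase inserts sequencing adapters into open DNA and open stretches are called as peaks. The 2 libraries of 24-month-old mice that had received phosphate-buffered saline (24-month PBS) were set against the 2 libraries of 3-month-old mice given the same injection (3-month PBS), so 4 of the 12 libraries in the series define the comparison. Overlapping peaks of these 4 lists (at least 1 bp) were merged into 44445 regions. A region was termed gained when both 24-month lists and neither 3-month list called it, and lost in the reverse case. This gave 2758 gained and 469 lost regions.

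All libraries came from brain microglia of wild-type female mice, which the study's methods name as C57BL/6J and as sorted by flow cytometry for CD11b and low CD45. PBS is the vehicle, injected intraperitoneally, and the remaining 8 libraries were from 14-month-old mice given PBS and from mice of all 3 ages given lipopolysaccharide (LPS). Each library was a pool of 2 to 3 mice, so replicates are pools and the spread between them is not the spread between mice. The methods name 2 sources of mice without assigning ages to them, and mice of different ages were not randomized, so age and cohort cannot be told apart.

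Microglia are the resident macrophages of the brain. In the young brain they keep a homeostatic programme (Tmem119, P2ry12, Cx3cr1 and Sall1 among its genes) that depends on TGF-beta signalling and on the factors PU.1, MEF2C and SALL1. With age and disease microglia are known to shift towards immune and lipid-handling programmes, with genes such as Apoe, Cst7, Spp1 and Cd74. AP-1, a dimer of FOS and JUN family proteins, binds many regulatory regions that open on activation.

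Stretches of 121 bp centred on the summit give examples of the regions that the results turn on. Apart from that of Spp1, they were picked from list-gene regions because they hold the motif named, so they do not show how frequent it is. All are from GRCm38 (mm10), plus strand, written 5′ to 3′, and capitals mark matches to the searched motifs. The first 4 were gained or higher at 24 months and hold an AP-1 match (TGANTCA), which was more frequent among such regions. They are chr5:95914151-95914271, 42.7 kb upstream of Cxcl13, chr4:53155507-53155627, in an intron of Abca1, chr8:10006490-10006610, at the Tnfsf13b promoter, and chr1:173766974-173767094, at the Ifi204 promoter, where an IRF match is also in capitals.
Cxcl13: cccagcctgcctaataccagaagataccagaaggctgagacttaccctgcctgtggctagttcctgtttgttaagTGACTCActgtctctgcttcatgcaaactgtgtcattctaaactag
Abca1: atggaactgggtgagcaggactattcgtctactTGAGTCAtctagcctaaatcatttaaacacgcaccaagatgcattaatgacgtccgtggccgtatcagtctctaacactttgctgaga
Tnfsf13b: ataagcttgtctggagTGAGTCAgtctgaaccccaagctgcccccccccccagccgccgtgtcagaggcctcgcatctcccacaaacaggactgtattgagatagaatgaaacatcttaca
Ifi204: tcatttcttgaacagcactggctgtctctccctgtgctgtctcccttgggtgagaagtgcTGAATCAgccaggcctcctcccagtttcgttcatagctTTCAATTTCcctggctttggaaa

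The Spp1 promoter, chr5:104434987-104435107, was among the gained regions and holds a PU.1 match (GAGGAAGT).
Spp1: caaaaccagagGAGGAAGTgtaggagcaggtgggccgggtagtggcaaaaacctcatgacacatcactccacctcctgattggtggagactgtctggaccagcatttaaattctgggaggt

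Another 4 stretches lay at homeostatic or phagocytic genes and were lower at 24 months. They hold a MAF match (TGCTGAC) at chr7:55744719-55744839, 23.4 kb upstream of Siglech, and at chr3:87255402-87255522, in Fcrls, or a PU.1 match at chr4:47398346-47398466, in an intron of Tgfbr1, and at chr16:33915157-33915277, in an intron of Itgb5. The matches of the last 4 lines read on the minus strand.
Siglech: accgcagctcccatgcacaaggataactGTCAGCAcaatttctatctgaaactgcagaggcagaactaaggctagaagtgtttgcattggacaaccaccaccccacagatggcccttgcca
Fcrls: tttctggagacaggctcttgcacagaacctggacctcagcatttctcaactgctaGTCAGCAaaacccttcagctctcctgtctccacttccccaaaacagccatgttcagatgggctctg
Tgfbr1: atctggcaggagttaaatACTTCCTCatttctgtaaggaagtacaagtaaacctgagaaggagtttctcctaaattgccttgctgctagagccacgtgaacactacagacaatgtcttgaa
Itgb5: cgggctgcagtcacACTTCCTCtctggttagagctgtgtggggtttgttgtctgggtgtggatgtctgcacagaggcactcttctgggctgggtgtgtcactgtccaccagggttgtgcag

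The 3-month PBS lists held 35538 and 38226 peaks and the 24-month PBS lists 39064 and 41501, against 28578 to 40542 in the other 8. Peaks were also wider in the aged lists, with a median of 416 and 419 bp against 351 and 368 bp, and covered 19.89 and 21.18 Mb against 15.09 and 17.14 Mb. The lists give no read counts, so depth is unknown. Longer lists with wider peaks favour gained over lost calls, and the part of this in the counts was not tested. Homeostatic microglia genes carried a promoter peak (summit within 1 kb of a transcription start site, TSS) at 27 and 28 of 30 genes in the young lists and at 27 and 27 in the aged lists. The second 14-month LPS library had the shortest list, and the second 24-month LPS library stood apart from its partner, so the age slope and the area contrasts in LPS libraries are given with and without both.

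Gained regions were 6.21% and lost regions 1.06% of all regions. Most regions (31627, or 71.2%) were called in all 4 lists, and 1214 were called in a single library of each age. Just outside the rule were 2578 regions called in both 24-month lists and 1 of the 3-month lists, and 1098 called in both 3-month lists and 1 of the 24-month lists. With each list cut to its 35538 peaks of highest area, the excess of gained regions narrowed to 1658 gained and 1130 lost. Of the original sets, 1272 gained and 341 lost regions were again gained or lost there.

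Peak area, the caller's significance summed over the length of a peak, was used to rank peaks as a percentile within their own list. Both sets were made up mostly of weak peaks. The mean percentile over the calling libraries had a median of 15.9 for gained and 10.1 for lost regions and reached at most 72.3 and 53.6. It was above the 50th percentile for 68 gained regions and for 1 lost region, the latter in an intron of Arhgef10l.

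The 10 highest-ranked gained regions near protein-coding genes had mean percentiles of 60.5 to 70.0, and every one was also gained with the lists cut to equal length. The highest lay 20.6 kb upstream of Srrm4, a splicing regulator known from neurons (chr5:116612220-116613004), at the 68.0 and 72.0 percentile of the aged lists. It was called weakly in both 14-month PBS libraries (20.1 and 31.9). Regions in introns of Trps1, a transcriptional repressor, at 65.7 and 64.9, and of Glipr1, at 61.0 and 60.9, were called in all 6 LPS libraries. So was a region downstream of Ccr1, a chemokine receptor, at 57.3 and 63.8. The region in Trps1 reached the 66.3 and 82.7 percentile in the 3-month LPS lists although neither 3-month PBS list called it.

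Calls of the remaining 6 regions in other libraries differed between regions. A region 1.62 kb upstream of Fam71a, at 61.3 and 70.2, was found in 1 further library, the first of 14-month LPS. A Csmd2 intron (61.2 and 68.1) was called in 1 further library too, the first of 24-month LPS. Gained promoters in the group belonged to Baiap2l1, an adaptor that bends membranes, at 57.4 and 74.0, and to Peg12, an imprinted gene, at 56.7 and 67.6. The group was completed by regions near Specc1l, at 63.0 and 71.1, and Hspb7, a small heat shock protein, at 58.6 and 64.5. The Baiap2l1, Specc1l and Hspb7 regions were called in all 6 LPS libraries whereas that of Peg12 was called in 1 of them, the first of 24 months, and in the second 14-month PBS library.

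The 10 highest-ranked lost regions had lower mean percentiles, 28.9 to 53.6, and all were lost with the lists cut to equal length. A region in an intron of Arhgef10l, a guanine nucleotide exchange factor (chr4:140622666-140623229), stood at 47.5 and 59.6 in the young lists and at 26.8 and 33.3 in the 14-month PBS lists, between the calls at 3 months and no call at 24 months. The Smox promoter, of spermine oxidase, had the same order, with 37.9 and 49.6 at 3 months and 6.86 and 3.94 at 14 months. Of the others, 1 was at a promoter, that of Sh3rf1, at 37.5 and 30.1. The remaining 7, at Mrnip, Fxyd3, Slc38a1, the glutamine transporter, Igf2bp3, Snn, Mroh8 and Vsir, an immune checkpoint receptor, lay in introns or between genes. The second 24-month LPS library called 9 of the 10 lost regions, the exception being the one in Slc38a1, and the first called none.

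Gained and lost regions differed in position, which the rule did not use. Promoters made up 21.5% of gained regions (594, 95% Wilson interval 20.0 to 23.1) and 7.25% of lost regions (34, 5.23 to 9.96), against 30.5% of all regions. Introns held 41.6% of gained and 58.4% of lost regions. The median distance to a TSS was 6.39 kb for gained and 12.8 kb for lost regions. Intervals here and below cover counting error alone, and regions are not replicates.

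**Figure D1:**
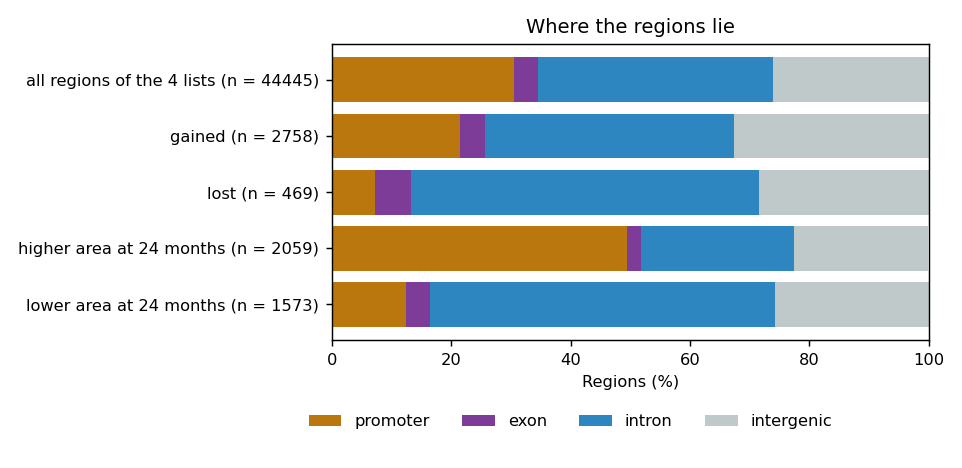
Share of regions (%) at promoters (within 1 kb of a TSS), exons, introns and between genes for all regions of the 4 lists, gained and lost regions, and regions of higher or lower area at 24 months. Promoters take 49.5% of the regions of higher area and 12.5% of those of lower area, against 36.4% of the 31627 regions tested for area, which are not drawn.

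Regions called in all 4 lists allow the size of the signal to be compared. The summed area of each was put on the log2 scale, quantile-normalized over the 4 libraries and tested with limma at a Benjamini-Hochberg adjusted p under 0.05. Of 31627 regions, 2059 (6.51%) had a higher and 1573 (4.97%) a lower area at 24 months. Before scaling, area was higher at 24 months by a median of 0.25 on the log2 scale, so all differences are relative to that shift, and without scaling the split was 7464 higher and 202 lower. Here too position differed, since 1020 of the 11508 promoters tested were higher and 197 lower, whereas 528 of the 11423 intron regions were higher and 910 lower. The median difference was 0.037 at promoters and -0.099 in introns. Leaving out either 24-month library cut the calls to 257 higher and 111 lower or to 176 and 168.

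The largest increase was at Bhlhe40, a helix-loop-helix transcriptional repressor (chr6:108659182-108660952, summit 1.12 kb upstream of the TSS). It stood at the 11.1 and 2.45 percentile of the young lists, 48.0 and 61.6 at 14 months and 96.8 and 97.5 at 24 months. This was an 11.9-fold higher scaled area, a ratio of summed significance and not of accessibility (log2 3.58 ± 0.14 SE, limma adjusted p = 1.9e-07, n = 2 libraries per age), and the 3 ages did not overlap. In the LPS libraries the same region ranged from 40.7, in the second 24-month library, to 98.1, in the first, and the 3-month LPS libraries were at 65.4 and 96.3.

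The Cdkn2a promoter (chr4:89294488-89295763) rose too. Cdkn2a encodes inhibitors of the cell cycle and is widely used as a marker of senescent cells. Its promoter was at 3.88 and 35.8 at 3 months, 28.0 and 39.3 at 14 months and 48.5 and 76.5 at 24 months (log2 1.78 ± 0.23, adjusted p = 0.0014). Both aged libraries lay above both young ones, though the libraries of each age were far apart. Without the second 24-month library the difference was 1.70 and the adjusted p 0.055.

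Promoters were frequent among the other large increases. Synj2, an inositol phosphatase, rose by 1.94 (2.13 and 26.0 to 69.8 and 77.1), and Crlf2, a receptor subunit for the cytokine TSLP, by 1.94 (43.0 and 27.9 to 88.1 and 87.6). Myo10, a myosin of filopodia, went from 15.9 and 23.4 to 77.9 and 77.7, with 38.1 and 62.6 at 14 months. The chemokine receptor gene Cxcr4 had a promoter region at 9.58 and 1.99 in young and 60.9 and 62.5 in aged lists, called in neither 14-month PBS list. Afdn, a scaffold of cell junctions, rose by 1.74, and regions at Tespa1, Btaf1 and Shtn1 by 1.60 to 1.63. The adjusted p of these 10 regions was at most 0.0014 (limma), and in none did the 4 libraries of the 2 ages overlap. They were picked for the largest differences in these same 4 libraries, so this separation follows from the choice.

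The largest decreases were smaller and lay mostly in introns. A region in Ccdc162 (chr10:41598198-41599047) fell from 68.1 and 67.1 to 5.36 and 18.7 (log2 -1.93 ± 0.17, adjusted p = 2.1e-04), with 45.6 and 59.1 at 14 months. Sema6d, a semaphorin, had the single promoter of the group (74.1 and 72.4 to 30.9 and 34.2, log2 -1.55 ± 0.14). An intron of Nos1ap, which encodes an adaptor of neuronal nitric oxide synthase, fell from 65.9 and 66.8 to 37.5 and 28.0. Those at Rgs7bp, Rtf2, Nudt3, Ppp4r1 and Chmp6 fell by between 1.41 and 1.11 on the log2 scale.

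**Figure D2:**
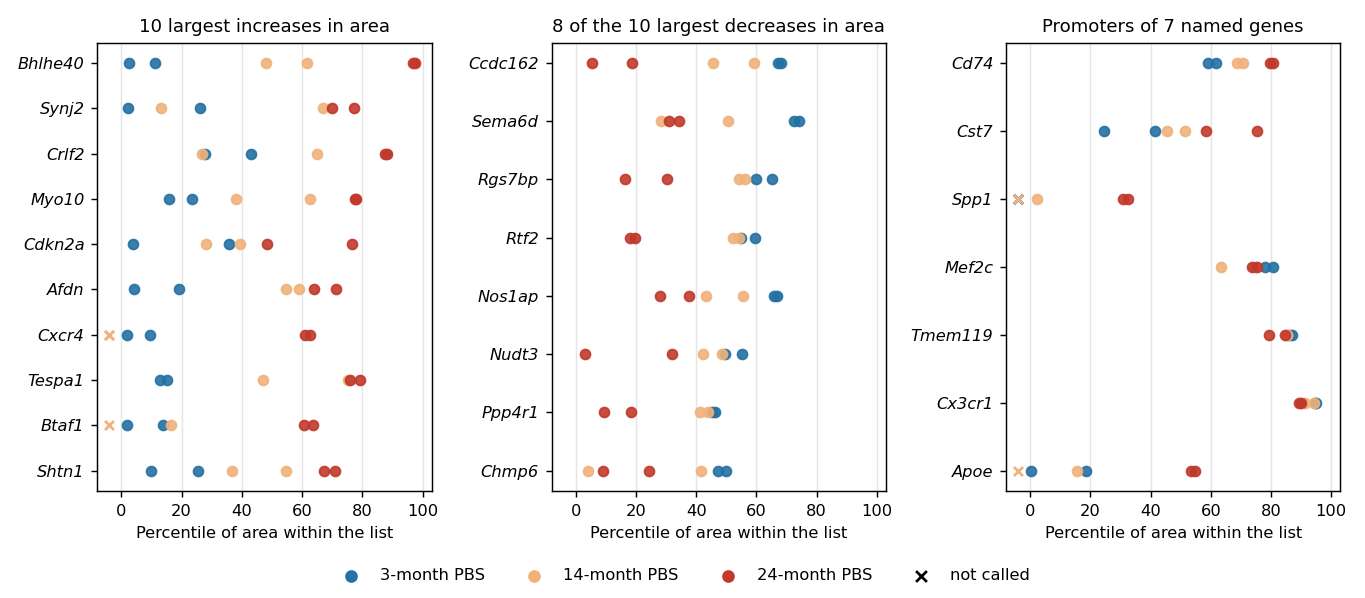
Percentile of area within the list for each PBS library at the 10 regions with the largest increase, 8 of the 10 with the largest decrease and the promoters of 7 named genes. Points are libraries coloured by age and crosses are lists that did not call the region. The 24-month points lie apart from the 3-month points in each region of the first 2 panels, whose regions were picked for that difference.

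Homeostatic genes were the group with most decreases. Of 120 tested regions nearest to 30 homeostatic genes, 29 (24.2%) were lower and 1 was higher, against 4.97% and 6.51% of all tested regions, and the median was -0.20 against -0.02 over all regions. Promoters (-0.21) and other regions (-0.20) had similar medians. The median stayed at -0.20 to -0.18 when either library was left out or another scaling was used, and without any scaling it turned to 0.08, below the 0.25 of all regions, with 6 lower and 9 higher. Of the 151 regions of the list 3 were gained and 3 lost (1.99% each, against 6.21% and 1.06% of all regions). Without either 24-month library 11 regions were lower and 0 higher, so the count of decreases rests on both (limma; 52 lower and 6 higher at an unadjusted p under 0.05 in the 4 libraries).

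Decreases touched the complement gene C1qa, 2.0 kb into the gene, which went from 53.9 and 65.7 to 37.3 and 28.5 (log2 -1.05). The promoters of C1qb (-0.17) and C1qc (-0.30) were also lower. Siglech, a sialic acid receptor, fell at its promoter (86.5 and 87.6 to 73.1 and 77.7, log2 -0.62) and at the upstream region printed above (75.1 and 73.7 to 46.1 and 61.9, log2 -0.88). Crybb1 fell at its promoter by 0.92 and Sparc, a matrix protein, by 0.60. Cst3, a protease inhibitor highly expressed in microglia, was lower at its promoter (-0.26) and 2.0 kb upstream (-0.82). At Sall1, a factor that defines microglial identity, the promoter moved from 99.9 and 99.9 to 99.6 and 99.7 (-0.24, adjusted p = 0.0024), a small change in one of the strongest peaks.

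Csf1r, the receptor for the growth factor that microglia need to survive, had 2 lost regions, 5.57 and 2.10 kb upstream, and 2 lower ones, 14.7 kb upstream and 2.82 kb into the gene. The intron region kept its rank, at 99.8 and 99.8 against 99.5 and 99.7 (log2 -0.22, adjusted p = 0.0084). P2ry12, the purine receptor that guides microglial processes to injury, was lower 7.49 kb upstream (67.8 and 69.4 to 54.8 and 49.7, log2 -0.73). Within the TGF-beta and purine receptor list 11 of 96 tested regions were lower and 2 higher (0 and 12 without scaling). These were 11.5% and 2.08%, against 4.97% and 6.51% of all tested regions. The decreases included introns of Tgfbr1 (-0.74) and Tgfbr2 (-0.57), the receptor chains for TGF-beta. The single higher region of the homeostatic list lay in Cd33.

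Inflammatory genes had a larger share of increases than all regions. Of 66 tested regions nearest to NF-kB target genes, 15 (22.7%) were higher and 0 lower, against 6.51% and 4.97% of all tested regions. The median was 0.17. Of 90 regions 8 (8.89%) were gained and 0 lost, near the 6.21% and 1.06% of all regions. With the lists cut to equal length 6 were gained and 1 lost. Before adjustment (limma p under 0.05) 27 were higher and 3 lower, and without the first or the second 24-month library 3 or 1 passed as higher. The Tnf promoter, of the cytokine TNF, went from 76.0 and 81.2 to 95.7 and 94.9 (log2 0.81 ± 0.11, adjusted p = 0.0017), with 71.8 and 84.9 at 14 months. Tnfaip3, an inhibitor of NF-kB signalling, rose at its promoter (0.31) and far more 12.4 kb downstream, from 2.87 and 0.646 to 42.5 and 47.4 (1.22). Promoters of Cxcl2 (0.93), Il1rn (0.75), Ccrl2 (0.37), Ccl3 (0.32), Nfkb2 (0.32) and Nfkb1 (0.28) were higher as well. Among gained regions was one 11.5 kb downstream of Nfkbia, the inhibitor that holds NF-kB in the cytoplasm, at 62.3 and 55.0.

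Interferon response genes likewise had a larger share of increases than all regions. Of 28 tested regions 6 (21.4%) were higher and 0 lower, against 6.51% and 4.97% of all tested regions, and the median was 0.19. Of 37 regions 4 (10.8%) were gained and 0 lost, against 6.21% and 1.06% of all regions. In a list this short, 0 lower and 0 lost are near the shares of all regions. An unadjusted p under 0.05 gave 10 higher and 0 lower, and leaving out the first or the second 24-month library left 0 or 1. The promoter of Ifi204, a DNA sensor family member, rose from 26.0 and 34.2 to 71.3 and 63.7 (log2 1.13 ± 0.16, adjusted p = 0.0022), with 34.1 and 53.1 at 14 months. Irf7, a factor that amplifies interferon signalling, rose at its promoter by 0.92 and 2.6 kb upstream by 0.85. The promoters of Rsad2 (46.3 and 38.4 in the aged lists) and Ifi27l2a (42.9 and 43.8) were gained. Zbp1 (0.74) and Ifi207 (0.92) had higher promoters.

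Antigen presentation genes showed 7 higher (16.3%, against 6.51% of all tested) and 2 lower (4.65%) of 43 tested regions (median 0.08). Of 58 regions 5 were gained (8.62%) and 0 lost. The shares of lower, gained and lost regions were near the 4.97%, 6.21% and 1.06% of all regions. Most increases were at class II genes, which present peptides to CD4 T cells. They were 2 regions upstream of H2-Aa (0.99 and 0.63), 2 upstream of H2-Ab1 (0.40 and 0.33) and the Cd74 promoter, of the invariant chain. The region 5.96 kb upstream of H2-Aa went from 36.8 and 27.6 to 63.2 and 67.2. Both decreases were at class I genes, the B2m promoter (-0.16) and a region 5.35 kb upstream of H2-K1 (-0.47). The promoter of Psmb8, an immunoproteasome subunit, was higher too (0.49). Of the costimulatory genes, Cd86 was higher in an intron (0.63) and Cd80 had 3 gained regions, its promoter at 28.0 and 27.2 among them. Without either 24-month library 1 region of the list was higher and 0 lower.

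Lipid handling genes had 11 of 53 tested regions higher (20.8%, against 6.51% of all tested) and 2 lower (3.77%), with a median of 0.05. Of 72 regions 6 were gained (8.33%) and 0 lost. The shares of lower, gained and lost regions were near the 4.97%, 6.21% and 1.06% of all regions. Cd36, a scavenger receptor for fatty acids and modified lipoproteins, was higher at 4.89 kb (39.7 and 51.4 to 74.5 and 77.3, log2 1.00 ± 0.12) and 7.68 kb upstream (0.85) and gained a region 8.64 kb downstream. The promoters of Plin2, a coat protein of lipid droplets (0.84), Abcg1 (0.47), Nr1h2 (0.50) and Dgat2 (0.32) rose. At Abca1, the cholesterol exporter, 2 intron regions were higher (0.82 and 0.40), 1 was lower (-0.31) and 1 was gained. The promoter of Ppara, a nuclear receptor for fatty acids, was gained at 52.1 and 61.3 and was already called at 46.6 and 60.9 at 14 months. Leaving out either 24-month library left 1 higher region.

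Disease-associated microglia genes had 5 higher and 5 lower of 62 tested regions (8.06% each, against 6.51% and 4.97% of all tested regions). The median was 0.02, and without scaling 14 were higher and 0 lower. Promoter peaks were called at 22 and 21 of 28 genes in the young and at 24 and 25 in the aged lists. Their summed percentiles were 1411 to 1471 and 1706 to 1710, which did not overlap. Sums also rose without overlap in lists with more decreases in area, as for phagocytosis and lysosome genes (2007 to 2037 against 2121 to 2144). Those of homeostatic genes fell (2095 to 2191 against 2034 to 2037). The part of the longer aged lists in these sums was not tested. Among the 5 higher were the Apoe and Itgax promoters (1.34 and 0.42) and regions at Lgals3 (0.80) and Fth1 (0.65). The 5 lower included 3 regions upstream of Ctsd, a lysosomal protease. Of 100 regions of the list 9 (9.0%) were gained, such as the Lilrb4a promoter (22.0 and 22.0), and 0 were lost. Both are near the 6.21% and 1.06% of all regions.

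Cell cycle and senescence genes had 7 higher (11.3%, against 6.51% of all tested) and 4 lower (6.45%) of 62 tested regions. Of 98 regions 8 were gained (8.16%) and 1 was lost (1.02%). The last 3 shares were near those of all regions, 4.97%, 6.21% and 1.06%, and without scaling 22 were higher and 0 lower. Beside Cdkn2a, the Cdkn1a promoter, of a further inhibitor of cyclin-dependent kinases, rose from 54.9 and 59.0 to 68.6 and 77.3 (0.50). The promoter of Glb1, the lysosomal beta-galactosidase whose activity is assayed in senescent cells, rose by 0.27. Introns of Lmnb1, which encodes lamin B1, held 2 higher regions (1.29 and 0.74) and a gained region between them at 54.1 and 53.2. Ccnd3, the D-type cyclin, was lower at its promoter (-0.50) and in 2 introns, whereas 2 peaks at the Ccnd2 promoter were gained.

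The clock list had 3 higher (8.57%, near the 6.51% of all tested regions) and 0 lower of 35 tested regions (7 and 1 at an unadjusted p under 0.05, limma). Of all tested regions 4.97% were lower. An intron of Per2, a repressor of the clock, went from 37.5 and 58.2 to 78.3 and 77.0 (0.99 ± 0.16), and the promoters of Clock (0.54) and Rora (0.65) rose. The hour of collection was not given in the sources used here.

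Myeloid transcription factor genes had more decreases than increases, with 17 lower (9.88%) and 2 higher (1.16%) of 172 tested regions. Of all tested regions 4.97% were lower and 6.51% higher. The list median was -0.07. Without scaling it was 0.19, again below that of all regions, with 1 lower and 32 higher. Decreases lay in Runx1 (-0.83 and -0.50), at 4 regions of Rxra (-0.34 to -0.43) and 11.4 kb upstream of Spi1, which encodes PU.1 (-0.30). The higher regions were those of Bhlhe40 and of the Etv4 promoter (0.47). Leaving out the first or the second 24-month library left 0 or 1 lower region. Phagocytosis and lysosome genes had 13 lower (11.6%) and 5 higher (4.46%) of 112 tested regions. Their median was -0.09 (0.18 without scaling, with 1 lower and 18 higher). Among them Itgb5, an integrin chain, was lower at 4 intron regions (-0.25 to -0.57), whereas the Hexa promoter (0.44) and an intron of Npc2 (0.76) were higher. Without either 24-month library, 1 was lower and 1 higher.

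Genes of TGF-beta signalling had further decreases, relative to the median region, beyond the receptors. Smad3, which carries the signal to the nucleus, fell in an intron (-0.59), and Smad7 and Ski, which restrain it, each fell at 2 regions. Skil (0.75) and Smad6 (0.79), likewise restraining genes, held the 2 higher regions. Iron handling genes had 1 higher and 1 lower of 27 tested regions (3.7% each, near the 6.51% and 4.97% of all tested regions). Immediate early genes, which sense dissociation and handling as well as activation, had 3 higher (Fosl2, Ier3 and Klf6) and 4 lower of 79 tested regions. These were 3.8% and 5.06%, near the shares of all tested regions, and the median was 0.03. Without scaling they had 28 higher and 1 lower and a median of 0.30. Without either 24-month library few regions in either direction passed in the disease-associated, cell cycle, clock, iron handling and TGF-beta lists. For immediate early genes the balance of higher and lower calls depended on which 3-month library was left out. Their median was 0.04 without the first and 0.01 without the second.

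Genes that the study had picked because their RNA rose with age in its own RNA data had 16 of 97 regions gained and 0 lost. The gained share was 16.5% against 6.21% of all regions, of which 1.06% were lost. Of 64 tested regions 11 were higher (17.2%, against 6.51% of all tested) and 0 lower, against 4.97% (18 and 3 at an unadjusted p under 0.05, limma). They are not independent evidence of direction. The chemokine gene Cxcl13, of B cell attraction, gained 3 upstream regions, at 55.3 and 61.7, 52.1 and 56.2, and 51.6 and 66.2, and a further region rose from 37.1 and 51.6 to 76.1 and 81.0 (1.16 ± 0.13). At 14 months the 3 gained regions stood at up to 30.6. The Tmsb10 promoter, of an actin-binding thymosin, rose by 1.00 and that of Tnfsf13b, the B cell survival factor BAFF, by 0.47. Without either 24-month library 3 regions of the list were higher. Genes picked for falling RNA had 6 lower and 2 higher of 67 tested regions (1 and 9 without scaling), 3 of 87 gained and 2 lost, and 2 or 0 were lower without the first or the second 24-month library. For the falling-RNA list the lower and higher shares were 8.96% and 2.99%, against 4.97% and 6.51% of all tested regions. Its gained and lost shares were 3.45% and 2.3%, against 6.21% and 1.06%. Of the factor genes that the study displayed from these same libraries, those shown as rising had 1 higher and 3 lower of 29 tested regions (3.45% and 10.3%). Those shown as falling had 0 and 3 of 28 (1 and 7 at an unadjusted p under 0.05, limma). Without scaling these were 10 and 0 for the rising and 3 and 0 for the falling genes. At their promoters the summed percentiles were 524.1 to 534.7 in young and 546.3 to 548.9 in aged lists for the rising genes, and 428.4 to 432.3 and 418.9 to 421.6 for the falling ones.

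**Figure D3:**
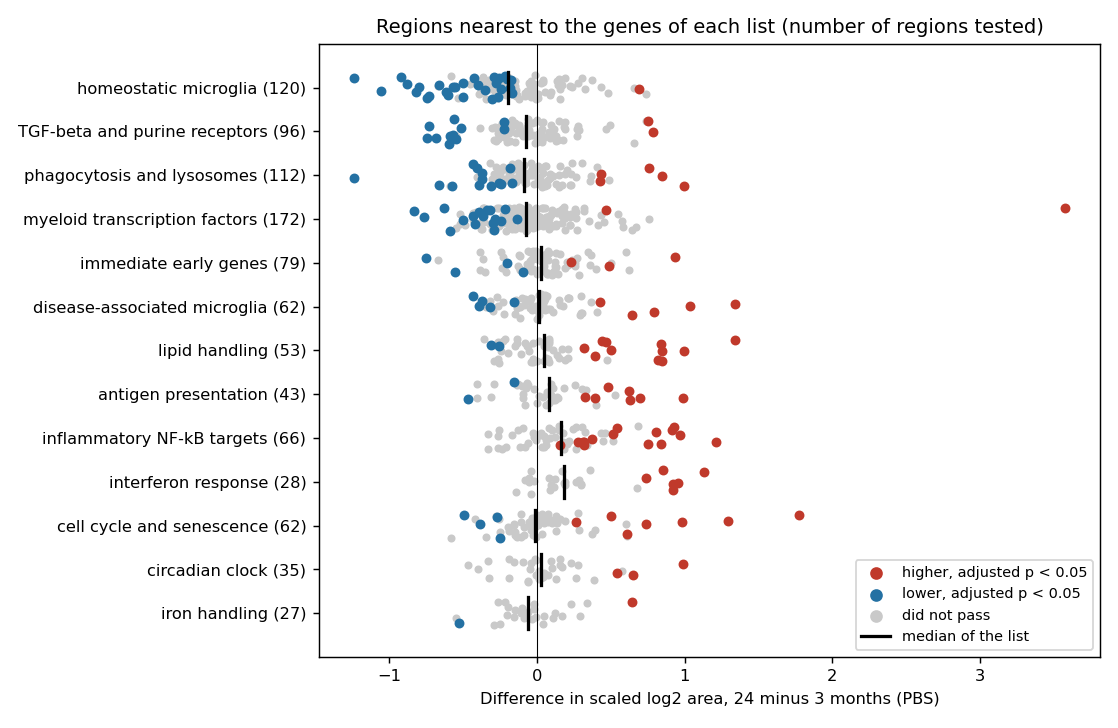
Difference in log2 area, 24 minus 3 months, for each tested region nearest to the genes of each list, with regions that passed the test (adjusted p under 0.05) in red (higher) or blue (lower), the rest in grey, a thick bar at the median of the list and a thin line at 0. The homeostatic list has a median of -0.20 and the interferon and NF-kB lists of 0.19 and 0.17.

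Promoters of 15 genes of microglial state and its regulators were followed by name. Apoe, the main apolipoprotein of the brain, went from 0.287 and 18.4 to 54.9 and 53.4 (log2 1.34 ± 0.21, adjusted p = 0.003), having been called at 15.6 in 1 of the 14-month libraries. Cst7, a cystatin, went from 24.4 and 41.5 through 45.6 and 51.6 to 58.3 and 75.5 (1.04 ± 0.20, adjusted p = 0.0089). Cd74 rose from 59.2 and 61.6 through 68.7 and 70.7 to 80.6 and 79.7 (0.70 ± 0.10, adjusted p = 0.002). In all 3 the young and aged libraries did not overlap. Without 1 of the 24-month libraries the adjusted p rose above 0.05 for each.

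The promoter of Spp1, the secreted protein osteopontin, was gained at 30.7 and 32.6. That of Axl, a receptor for dying cells, was called in the second 24-month library alone, at 4.17. Cx3cr1, the fractalkine receptor, fell from 94.6 and 94.9 to 89.2 and 89.9 (-0.40 ± 0.06, adjusted p = 0.0021), with 91.3 and 94.2 at 14 months. Tmem119 (-0.28, adjusted p = 0.047), Mef2c (-0.29, 0.045) and Junb (-0.09, 0.037) were lower relative to the median region, and the sign of these 3 turned without scaling. The promoters of Fth1 (0.00), Cebpb (0.15), Spi1 (-0.19), Irf1 (0.10), Irf8 (0.13) and P2ry12 (0.09) did not pass the test, with adjusted p of 0.097 to 0.97 in limma.

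Markers of other brain and blood cells were checked because a sort can let such cells through, and in pooled cells a change in the share of a cell type and a change of signal per cell cannot be told apart. Astrocyte genes had 0 promoter peaks in either young list and 2 and 3 of 11 in the aged lists, with summed percentiles of 43.3 and 71.2. The 14-month PBS lists had 1 and 2. In the LPS lists the counts were 2 and 0 at 3 months, 1 and 0 at 14 months and 1 and 1 at 24 months. Aldh1l1 (26.4 and 28.4) and Slc1a3 (16.9 and 24.7) had gained promoters, and Gfap, Aqp4, Aldoc, Slc1a2, S100b, Gja1, Sox9 and Gjb6 had none in any of the 4 lists. Of 14 genes of monocytes and border macrophages 1 and 2 had a promoter peak in young and 3 and 2 in aged lists, their sum rising from 34.3 to 42.4 up to 111.5 to 116.8. Vim, an intermediate filament gene also expressed by activated microglia, made up most of this (42.4 and 23.9 to 89.7 and 90.9, log2 1.25 ± 0.17), while Ccr2, Ly6c2, Mrc1, Cd163 and Lyve1 had none in the 4 lists.

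Endothelial genes went from 2 and 2 to 3 and 4 of 12 (136.2 to 137.2 against 158.2 to 175.6). The counts were level at 1 of 12 for granulocytes (82.3 to 86.9 against 77.0 to 80.01), 1 of 18 for lymphocytes (48.2 to 52.0 against 41.4 to 48.7), 1 of 13 for neurons (50.02 to 62.0 against 65.1 to 77.5) and 4 of 12 for oligodendrocytes (162.7 to 192.3 against 186.2 to 209.9). Over all their regions, gained and lost calls were 3 and 0 of 8 for astrocytes, 1 and 0 of 13 for monocytes and border macrophages, 3 and 1 of 23 for endothelial cells, 2 and 1 of 13 for granulocytes, 1 and 0 of 16 for lymphocytes, 2 and 0 of 6 for neurons and 1 and 0 of 21 for oligodendrocytes, against 6.21% and 1.06% of all regions. The area was higher at 1 of 3, 1 of 5, 3 of 14, 1 of 9, 1 of 13, 0 of 4 and 1 of 18 tested regions of these lists in the same order, and lower at 2 granulocyte and 1 oligodendrocyte regions (limma; for neurons 1 was higher at an unadjusted p under 0.05). Of all tested regions 6.51% were higher and 4.97% lower. The part of such cells in the gained and higher regions was not tested.

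Motif matches were counted in windows of 150 bp on either side of the summit, on both strands, and the percentages in all regions of the 4 lists are given as the reference. Outside promoters an AP-1 match (TGANTCA) was in 22.8% of gained regions (493 of 2164, interval 21.1 to 24.6), in 7.36% of lost regions (32 of 435, 5.26 to 10.2) and in 13.7% of all regions. With the lists cut to equal length the shares were 24.9%, 7.98% and 13.7%. Among regions tested for area it was in 26.5% of the higher and 8.28% of the lower, against 13.2% of all tested. The contrast was thus found in both kinds of comparison, which share the same 4 libraries but no region.

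Other motifs of macrophage factors differed by fewer percentage points. A C/EBP match (TTGCNNAA) was in 17.2% of gained, 13.8% of lost and 14.4% of all regions outside promoters, and a RUNX match (TGTGGTT) in 11.0%, 5.52% and 9.22%. IRF (GAAANNGAA) was in 13.5%, 11.0% and 12.5%, and NF-kB (GGGANTTCC) in 2.4%, 1.38% and 2.35%. MEF2 (CTAAAAATA) was in 1.16% (25 of 2164), 0.23% (1 of 435) and 0.929%. Of the regions of higher, of lower and of any tested area, C/EBP was in 17.8%, 12.6% and 14.0% and RUNX in 10.9%, 8.5% and 9.23%. IRF was in 13.7%, 9.52% and 12.5%, NF-kB in 3.95%, 1.82% and 2.47%, and MEF2 in 1.54%, 1.24% and 0.924%. Regions of lower area had a MAF match (TGCTGAC) in 14.7% (12.9 to 16.6) against 9.34% of the higher and 9.04% of all tested, and a PU.1 match (GAGGAAGT) in 16.9% against 12.2% and 15.3%. For lost regions MAF was in 8.97% and PU.1 in 13.6%, against 8.54% and 14.2% of all regions, so neither stood apart there. The AP-1, C/EBP, RUNX, IRF, NF-kB, MEF2, MAF and PU.1 letters were in 11.3%, 12.5%, 7.74%, 10.9%, 2.46%, 0.751%, 7.34% and 11.5% of all regions with promoters included. Median GC content outside promoters was 48.8% in gained, 48.5% in lost and 49.5% in all regions, and 49.8% in higher, 51.5% in lower and 50.2% in all tested regions.

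**Figure D4:**
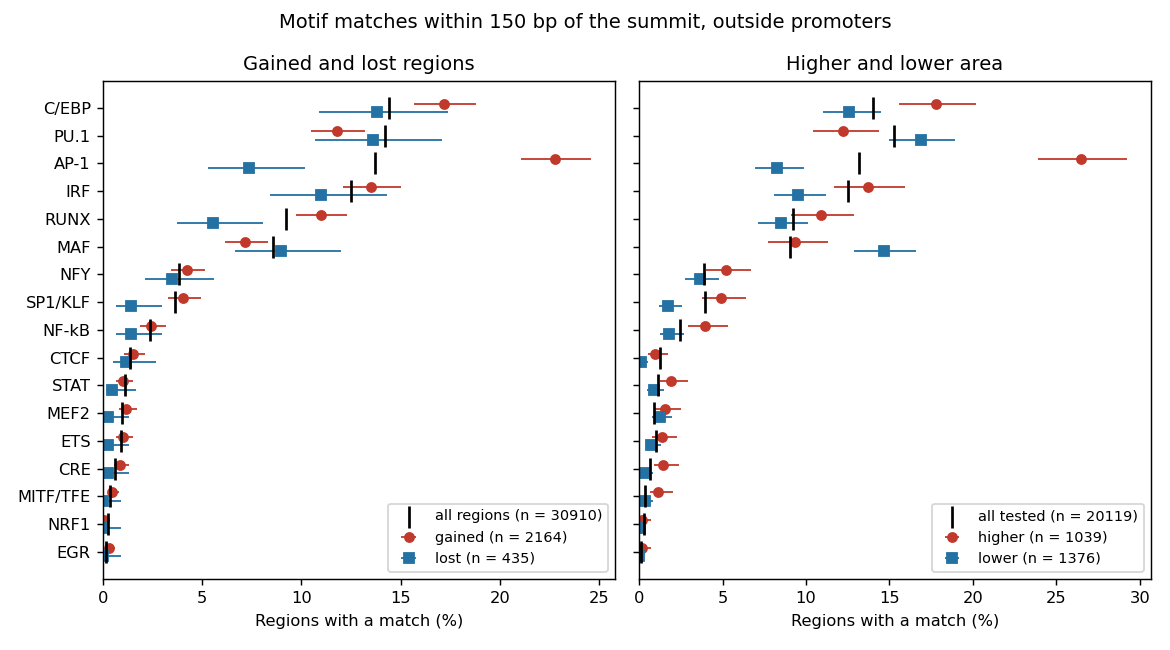
Share of regions outside promoters (%) with a match to each motif within 150 bp of the summit, for gained and lost regions (left) and regions of higher and lower area (right), with 95% Wilson intervals as lines and the share of all regions of that panel as a black bar. AP-1 has the widest gap, 22.8% of gained against 7.36% of lost regions.

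The 8 libraries that took no part in the rule show where the gained and lost regions stood at middle age and after LPS. Of the gained regions, the 14-month PBS libraries called 17.0% and 49.6%, and of the lost regions 41.6% and 72.5%, while they called 97.2% and 99.5% of the regions shared by all 4 lists. Both 14-month libraries called 14.1% of gained and 33.7% of lost regions, and neither called 47.5% and 19.6%. In each 14-month library lost regions were thus called more often than gained ones, by 24.5 and 22.9 percentage points. These shares were not repeated with the lists cut to equal length. Median peak width was 351 and 374 bp in the 14-month lists, against 416 and 419 bp in the aged lists. The part of list length and peak width was not tested, so presence does not place these libraries nearer to either age. The 2 libraries differed more from each other in gained calls than the 2 sets differed within either.

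The 3-month LPS libraries called 52.4% and 54.6% of the gained regions although neither 3-month PBS library called any by definition, and 39.7% and 26.2% of the lost regions. The 14-month LPS libraries called 47.8% and 24.4% of gained and 20.0% and 4.26% of lost regions. In the first 24-month LPS library these were 52.7% and 5.12%, and in the second 37.2% and 46.5%, the reverse order. The reversal did not hold with the lists cut to equal length, where the second called 15.9% of gained and 12.4% of lost regions. All 6 LPS libraries called 444 gained and 8 lost regions, none called 665 and 164, and 372 gained and 40 lost regions were called in no other library of the series.

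**Figure D5:**
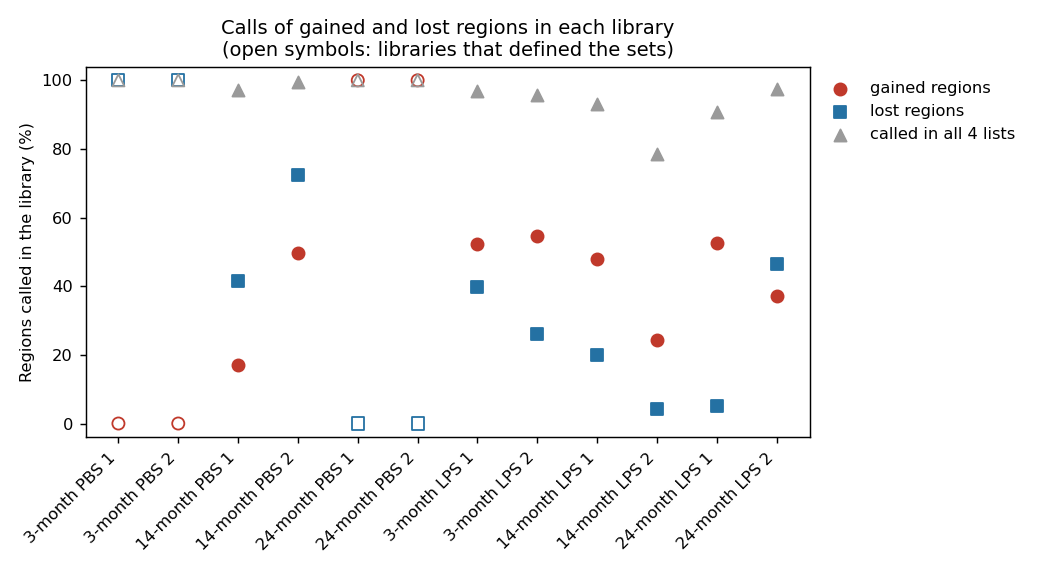
Percent of the 2758 gained, 469 lost and 31627 shared regions called in each of the 12 libraries. The 4 PBS libraries of 3 and 24 months are 0 or 100 by definition, and the second 24-month LPS library calls 46.5% of the lost regions against 5.12% in its partner.

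The share of gained minus the share of lost regions called was positive in 5 of 6 LPS libraries, at 12.8 and 28.4 percentage points at 3 months, 27.7 and 20.1 at 14 months and 47.6 and -9.32 at 24 months. With the lists cut to equal length it was positive in all 6, at 23.4, 33.4, 33.4, 28.8, 47.4 and 3.47 in the same order. A trend with age was not shown, with a slope of -0.0637 percentage points per month (exact permutation test over 90 arrangements, two-sided p = 0.967, smallest possible 0.0222). Without the second 14-month and second 24-month libraries the slope was 1.22 (exact permutation p = 0.167 over 12 arrangements, smallest possible 0.0833), so 4 libraries could not have reached 0.05.

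Areas of the regions that changed between resting mice were also read in the LPS libraries. Of the 2059 higher regions 1756 were called in all 12 libraries, and the 24-month LPS libraries had the higher mean area in 44.6% of them (median difference -0.02), against 50.1% of all 24347 regions called in every library. For the lower regions the share was 50.5% of 1196. These shares depend on 2 libraries. Without the second LPS library of 24 months and that of 14 months, a choice made after seeing the data, 74.1% of the higher regions (median 0.11) and 19.3% of the lower ones (median -0.14) had the higher area at 24 months under LPS, against 51.7% of all, with 1 library standing for the aged LPS group.

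The difference between the age contrast under PBS and that under LPS was itself tested in 24198 regions merged over all 12 libraries. It passed at 1 of them, near Myo1e, with 3185 at an unadjusted p under 0.05 (limma). Over 10 libraries it passed at 20, of which 18 had the larger difference under PBS and 2 the smaller, with 2961 at an unadjusted p under 0.05. Whether most regions respond to age differently under LPS was not resolved.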

How the data were processed

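ATAC-seq peak lists of 12 libraries of mouse microglia were used. Per the study's methods and processing notes, reads were trimmed with cutadapt 2.8 and aligned to mm10 with Bowtie2 2.4.1, duplicates, mitochondrial reads and blacklisted regions were removed, and the authors called peaks with Genrich in each library separately. For SAMtools and Genrich the version, and for reads any shift of their ends, is not given in the sources used here. Labels also describe nuclei from frozen tissue, while the methods describe sorted cells.

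For each peak the authors deposited an area score, the significance summed over the peak, and the −log10 p at its summit; neither is normalized between libraries. No read counts are held, so depth is unknown and no count test was made, although the study itself tested counts.

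Peaks on the 19 autosomes and X and Y were merged (1 bp) over the 4 PBS lists of 3 and 24 months. Regions were assigned to the nearest TSS of the mm10 annotation. Summed log2 area of regions called in all 4 lists was quantile-normalized and tested with limma 3.58.1 (R 4.3.3, trend, Benjamini-Hochberg adjusted p under 0.05), and the fit was tested on simulated data. With 2 libraries a group no exact test of 1 region can reach 0.05. Named were the 10 top regions in each direction by percentile or by difference, called regions of 24 gene lists within 100 kb, and 15 promoters. Members and lists were chosen with earlier results of these data known. Groups came from the sample titles. Same replicate numbers did not pair libraries (correlation of deviations 0.0339). Alternatives covered list length, overlap, summit windows, a stricter floor, scaling, the area measure, the libraries fitted, the replicate block and each library left out. The reference annotation may differ from the one the authors used. Results for some named genes are not reported here.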

Additional observations from a re-analysis of the deposited data

Results flagged for a closer look

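At 1 region the effect of age differed between PBS and LPS mice by a test of that difference itself. It lay in an intron of Myo1e, an unconventional myosin, 77.5 kb downstream of the TSS (chr9:70284356-70285281). Areas are given before scaling, whereas the log2 changes and tests that follow are from scaled areas. In PBS libraries the area of this region was 344.7 and 378.6 at 3 months, 458.3 and 619 at 14 months and 1055 and 1007 at 24 months. In LPS libraries it was 2335 and 2345, then 2131 and 1587, then 1926 and 1903, so every LPS library lay above every PBS library. The change from 3 to 24 months was 1.21 on the log2 scale under PBS (adjusted p = 0.0014) and -0.26 under LPS (adjusted p = 1.0), and the difference between them was 1.47 (limma fit of 12 libraries, adjusted p = 0.0079 over 24198 regions). With the second LPS library of 14 and of 24 months left out, the difference was 1.32 (limma adjusted p = 0.0045), with 1.20 under PBS and -0.12 under LPS (adjusted p = 0.82).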

How the results depend on the processing

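Gained regions outnumbered lost regions under every alternative tried. Lists cut to equal length gave 1658 gained and 1130 lost, and leaving out 1 library gave 3249 to 5286 gained and 754 to 1425 lost. Lost regions were 884 with summit windows and 204 with a stricter floor. Promoters made up 19.4% to 21.6% of gained regions when 1 library was left out, and with a TSS within 3 kb they made up 35.8% of gained and 17.9% of lost regions. Regions of higher and lower area were 1208 and 807 by the highest peak, 79 and 18 in the fit of 12 libraries (1597 and 1221 over 10 of them, leaving out the second LPS library of 14 and of 24 months, and 1771 and 1471 over the 6 PBS libraries), and 7464 and 202 with no scaling, these last 3 fits being chosen after seeing the data. Leaving out 1 library gave 176 to 2870 higher and 111 to 1753 lower. The lowest counts came without a 24-month library, where 1 library stands for the aged group and is assumed to vary like the others. No scaling turned the sign at the promoters of Mef2c (0.02), Junb (0.19) and Tmem119 (0.02). With the replicate block, 2333 regions were higher and 1715 lower, and none of the 20 regions of largest difference and 7 named promoters that had passed changed its call. List counts moved by a few regions under it, such as 15 to 18 higher and 0 to 1 lower for NF-kB targets and 6 to 8 higher for interferon genes. The age slope in LPS libraries ranged from -1.13 to 1.12 with 1 library left out, being 0.21 without the second 3-month and 1.12 without the second 24-month library, and was 1.22 over 4 libraries, chosen after seeing the data. The age contrast differed between PBS and LPS at 1 region over 12 libraries and at 20 over those 10. Beyond the scaling shift described above, the cause of these changes was not tested. Depth is unknown, so a region called in no list may still be open.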

Other observations

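Several genes outside the lists collected more than 1 gained or lost region. They were chosen for such counts after the values were seen, so the counts follow from the choice and carry no test. Of all regions 6.21% were gained and 1.06% lost, and of all tested regions 6.51% were higher and 4.97% lower. Of 11 regions nearest to Rftn1, a lipid raft protein, 5 were gained, and of 10 nearest to Trps1, 5 were gained and 2 of the 4 tested were higher. Chst1, Fam71a and St8sia6 each gained 4 regions, of 6, 7 and 5. Tiam1, an exchange factor for Rac, lost 4 of 16 regions, while 1 of its 8 tested regions was higher. Vsir lost 3 of 17, with 3 of its 9 tested regions lower. Syk, a kinase of immune receptors, and Lmna, which encodes lamins A and C, had 3 higher regions each, of 8 and 6 tested. Among genes with repeated decreases, Tns3 had 5 of 20 tested regions lower and 1 higher. Inpp5d, a phosphatase of immune signalling, had 4 of 16 lower. Psap, a precursor of lysosomal activators, had 4 of 10 lower and Tnfrsf1b, a TNF receptor, 4 of 12, each with 1 higher. Cryba4, a neighbour of Crybb1, had 3 of 4 tested regions lower.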
